A study of Homo sapiens with 6 samples.

Results

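The comparison described here is that of UVC-irradiated with untreated cells 25 min after transcription was released from DRB. It holds 2 of the 6 libraries of the series, chosen by their labelled treatment and time, with 1 library a side. Both came from MRC5VA, an immortalised line of human lung fibroblasts, held in DRB at 100 µM for 3.5 h. The irradiated cells then received UVC at 15 J/m2 and the untreated cells did not. DRB was washed out of both, and nuclei were isolated 25 min later for GRO-seq. In this assay, polymerases already engaged on DNA extend their RNA for 5 min with a bromouridine nucleotide, and the RNA carrying it is captured with an antibody and read. All 6 groups share the DRB block, so no group shows transcription in cells that were never blocked. Pairs of libraries taken at 10 and 40 min in the same way are used below only to set the 25 min values in their time course. Each group is 1 library, so how far any value varies from culture to culture is unknown and nothing was tested.

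RNA polymerase II starts transcription at the promoter, pauses a short distance downstream, and is let into the gene body when the kinase CDK9, part of P-TEFb, phosphorylates the polymerase and its pausing factors. DRB inhibits this kinase, so polymerases collect near promoters. When it is washed out, they move into genes as a wave whose leading side shows how far transcription has come. UVC makes cyclobutane pyrimidine dimers and other bulky lesions in DNA, and a lesion in the template strand can arrest a polymerase. The arrested polymerase is what recruits transcription-coupled repair, through CSB and its partners. The comparison addresses how UV irradiation changes the passage of polymerases through genes.

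Each library was deposited as 1 profile, the signal averaged over genes at every position from 2 kb upstream to 120 kb downstream of position 0, which is taken here to be the start of the genes. The values are in the authors' own unit, whose scaling is not given in the sources used here, so heights compare between libraries only as far as that scaling makes them comparable. All values in a library were whole multiples of 1 smallest step, with a mean of 32898 steps per position in the untreated and 28343 in the irradiated 25 min library. No position held fewer than 17384 steps in either. What 1 step counts is not stated, so the read depth is unknown and no counting interval is given. Because the profiles are averages, no single gene can be named, and the spread between genes is not known.

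At 25 min the irradiated profile was higher than the untreated one close to position 0 and lower through most of the next 40 kb. In the first 2 kb the mean signal was 3.70 in untreated and 5.13 in irradiated cells, a ratio of 1.39. Between 20 and 25 kb it was 2.86 in untreated and 0.976 in irradiated cells, a ratio of 0.342. Between 50 and 75 kb the values were 1.20 and 1.21. Irradiated signal was thus higher at the start of genes, lower in the body, and, on the deposited scale, close to untreated signal past the wave.

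**Figure D1:**
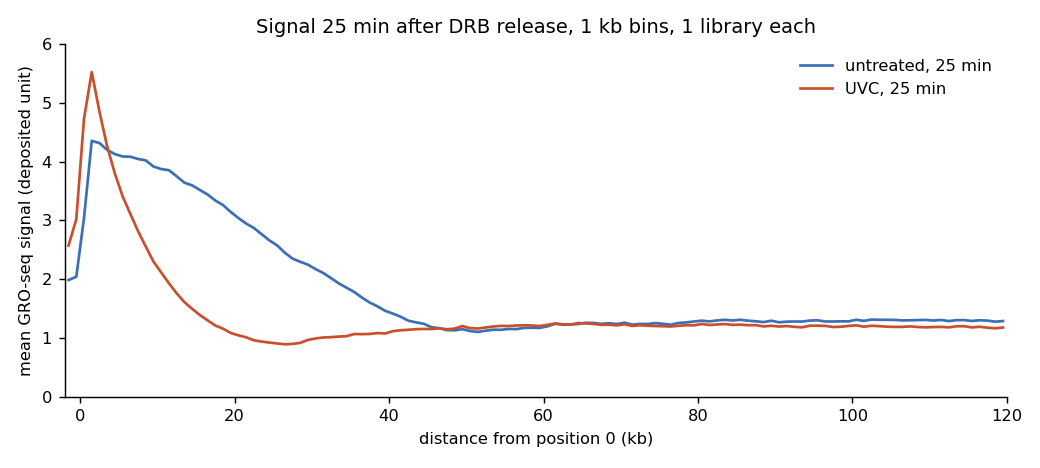
Mean GRO-seq signal (vertical axis, deposited unit) in 1 kb bins against distance from position 0 (horizontal axis, kb), for the untreated and the irradiated library taken 25 min after release. The irradiated line peaks higher (5.52 against 4.35 in the bin from 1 to 2 kb) and falls to its lowest value (0.893) before 30 kb, where the untreated line is still above 2.

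The shapes of the profiles differed from the first kilobases on. In untreated cells the signal formed a plateau: the bins from 2 to 5 kb ranged from 4.13 to 4.31 and those from 5 to 10 kb from 3.91 to 4.09. Between 2 and 10 kb the untreated signal changed from one 1 kb bin to the next by a median of -1.03% (range -2.71% to -0.098% over 8 steps). In irradiated cells there was no plateau. The bins from 2 to 5 kb ran from 4.85 down to 3.80 and those from 5 to 10 kb from 3.41 down to 2.30. The irradiated signal changed by a median of -9.72% per kb over the same 8 steps (range -12.2% to -8.04%). The smallest of these losses was larger than the largest untreated one.

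The untreated decline steepened with distance and the irradiated decline flattened. From 10 to 20 kb the median change per kb was -2.51% in untreated and -6.93% in irradiated cells. Between 20 and 30 kb the medians were -3.28% and -1.60%, and between 30 and 40 kb they were -4.09% and 0.80%. The untreated library was therefore on the leading slope of its wave at distances where the irradiated library had already reached its lowest level. That lowest level, on a running mean of 2 kb, was 0.894 at 26.6 kb in irradiated cells and 1.11 at 51.6 kb in untreated cells.

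Signal at the very start of genes was examined in bins of 100 bp. The highest bin between -0.5 and 2 kb began at 1600 bp in untreated cells, with a signal of 4.43, and at 1100 bp in irradiated cells, with a signal of 5.76. The untreated maximum was the top of a flat stretch, since its bins from 1100 to 2000 bp lay between 4.32 and 4.43. Both profiles had a shallow minimum just upstream, in the bin at -200 bp, of 1.61 in untreated and 2.58 in irradiated cells. Both profiles also had a local maximum in the bin from 100 to 200 bp. In irradiated cells it was 4.36, before a small fall to 4.17 in the bin at 300 bp. In untreated cells it was 2.36, after 2.05 in the bin at 0 bp and before 2.31 at 200 bp and 2.42 at 300 bp.

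The ratio of irradiated to untreated signal was highest in that same bin, at 1.85. It was 1.24 in the bin at -2000 bp, rose to 1.60 at -200 bp, and after the maximum declined to 1.35 at 1000 bp, 1.18 at 2000 bp and 1.06 at 3000 bp. It first fell below 1 in the bin that began at 3700 bp. The difference in signal was broader than the ratio: it was 2.001 in the bin at 100 bp, 1.66 at 400 bp, 1.48 at 1000 bp, 0.775 at 2000 bp and 0.244 at 3000 bp.

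**Figure D2:**
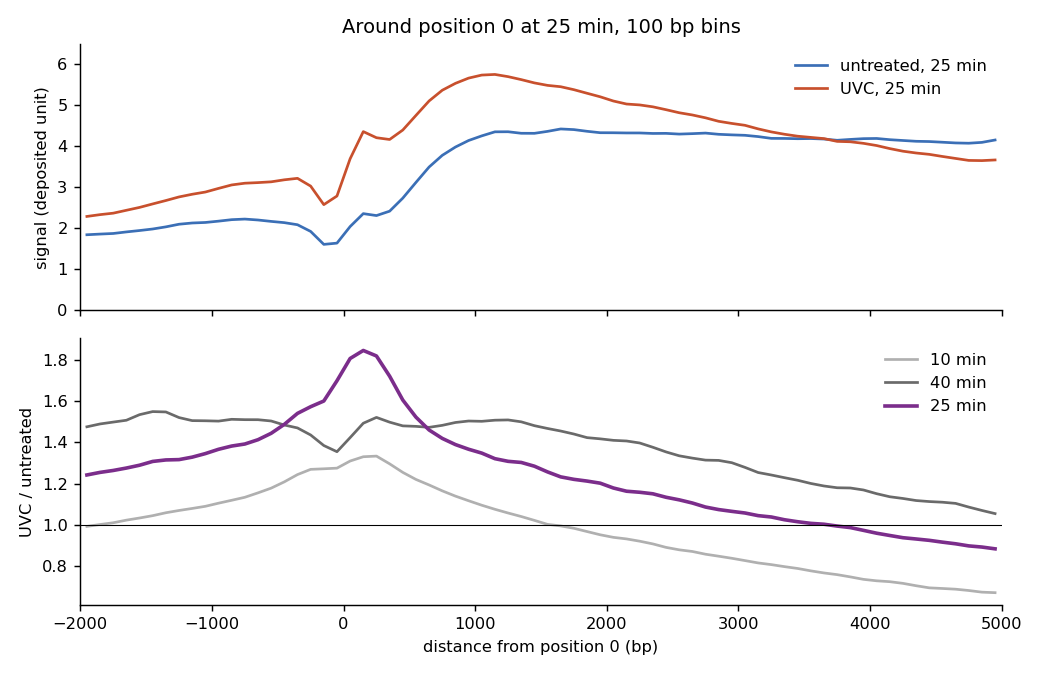
Upper panel, signal (vertical axis, deposited unit) in 100 bp bins from 2 kb upstream to 5 kb downstream of position 0 (horizontal axis, bp) in both 25 min libraries. Lower panel, ratio of irradiated to untreated signal over the same bins at 10, 25 and 40 min. The 25 min ratio has a peak of 1.85 in the bin from 100 to 200 bp.

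A measure within each library, which no scaling factor can move, showed the same difference in shape. The signal from 100 to 200 bp was 53.3% of the library's own highest bin in untreated and 75.8% in irradiated cells at 25 min. At 10 min the corresponding shares were 68.3% and 81.7%. At 40 min they were 60.4% and 59.8%. Irradiated cells thus had the higher share at 10 and 25 min, with the wider gap at 25 min, and the 2 shares at 40 min lay close together. How far such shares vary between cultures was not measured.

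Upstream of position 0, from -2 to 0 kb, the mean signal was 2.01 in untreated and 2.80 in irradiated cells, a ratio of 1.39. The ratio from 0 to 2 kb was also 1.39, but the ratio was not even within either window. In 1 kb bins it was 1.30 and 1.48 upstream, and 1.55 and 1.27 downstream. With the distal mean subtracted the log2 ratio was 1.17 upstream and 0.72 from 0 to 2 kb. Many human promoters also fire in the opposite direction, but how strands were combined in these profiles is not stated. Signal from divergent transcription and from neighbouring genes cannot be told apart here.

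Along the gene the ratio declined smoothly to a single minimum and then rose again. In 1 kb bins it was highest in the bin from 0 to 1 kb (1.55), and the first bin below 1 began at 4 kb (0.919). From 2 to 10 kb it fell by close to the same proportion at every step, with a median change of -8.74% per kb (range -9.75% to -7.05%). From 10 to 20 kb the median step was -4.66%. The lowest ratio, 0.335, lay in the bin from 22 to 23 kb, where untreated signal was 2.87 and irradiated signal 0.961. From 30 to 40 kb the ratio rose by a median of 5.51% per kb, and it was back at or above 1 in the bin that began at 47 kb. Over 30 to 40 kb the untreated bins fell from 2.17 to 1.46, while the irradiated bins stayed between 0.992 and 1.08. The rise in the ratio there was thus mostly a fall in untreated signal.

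By the windows, the log2 ratio was 0.47 in the first 2 kb, 0.029 between 2 and 5 kb and -0.51 between 5 and 10 kb. Over the next 4 windows of 5 kb, which end at 30 kb, it was -1.07, -1.44, -1.55 and -1.38. It was -0.80 between 30 and 40 kb and -0.099 between 40 and 50 kb. The SD of the log2 ratio over the 1 kb bins inside a window was smallest from 100 to 120 kb (0.0093) and largest from 30 to 40 kb (0.24), where the ratio was climbing. Neighbouring bins share genes and are not replicates, so this SD describes evenness along the profile and not experimental error.

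Of the 122 bins of 1 kb, 29 were lower in irradiated cells by 1.5-fold or more, which is 23.8%, and they formed an unbroken stretch from 8 to 37 kb. Within it, the 20 bins from 12 to 32 kb were lower by 2-fold or more. Only 1 bin, that from 0 to 1 kb, was higher by 1.5-fold (0.82%). At 10 min, 7 bins were lower by this fold (5.74%), from 5 to 12 kb, and at 40 min 51 were (41.8%), from 11 to 62 kb. The affected stretch at 25 min thus started and ended between those of the other times, at both of its ends.

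**Figure D3:**
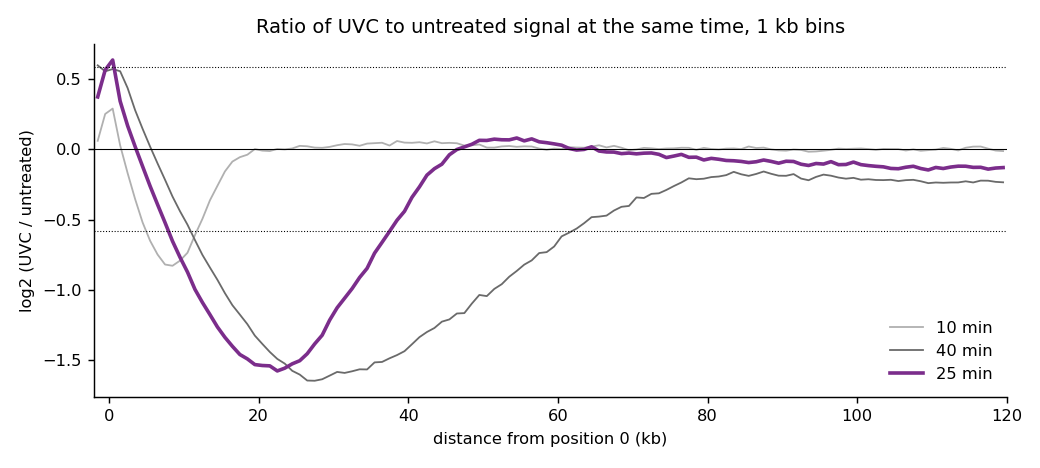
Log2 ratio of irradiated to untreated signal (vertical axis) in 1 kb bins against distance from position 0 (horizontal axis, kb) at 25 min and, in grey, at 10 and 40 min; dotted lines mark a fold of 1.5. The 25 min line is lowest in the bin from 22 to 23 kb (ratio 0.335) and returns to 0 near 47 kb.

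Set out window by window, the 25 min ratio followed neither of the other times throughout. In order of time, the ratio in the first 2 kb was 1.11, 1.39 and 1.48. Between 2 and 5 kb the ratios were 0.801, 1.02 and 1.23, and between 5 and 10 kb they were 0.593, 0.704 and 0.868. In these first windows the ratio was thus higher at each later time. Between 15 and 20 kb they were 0.954, 0.368 and 0.444, so that the 25 min value was the lowest of the 3. Between 20 and 25 kb they were 0.998, 0.342 and 0.358, and between 30 and 40 kb they were 1.03, 0.575 and 0.346. Whether the times differ was not tested.

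The difference in signal, unlike the ratio, was largest closer to position 0. It reached -2.14 in the bin from 16 to 17 kb, where untreated signal was 3.44 and irradiated signal 1.30. Summed over bins, irradiated cells lacked 56.3 units (signal multiplied by kb) in the 100 bins where they were lower. They had an excess of 5.67 units in the 22 bins where they were higher, which is 10.1% of what was missing. Of the excess, 1.57 units lay upstream of position 0, 3.45 units from 0 to 4 kb and 0.652 units further on. Of the missing signal, 11.2% lay in the first 10 kb, 52.9% between 10 and 25 kb, 28.4% between 25 and 50 kb and the last 7.56% beyond. Over the whole profile the irradiated library held 77.4% of the untreated signal. The size of the excess against the deficit rested on the scaling. It was 26.7% with each profile divided by its distal mean, and 100.0% with each divided by its overall mean, which makes the sums equal by construction.

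**Figure D4:**
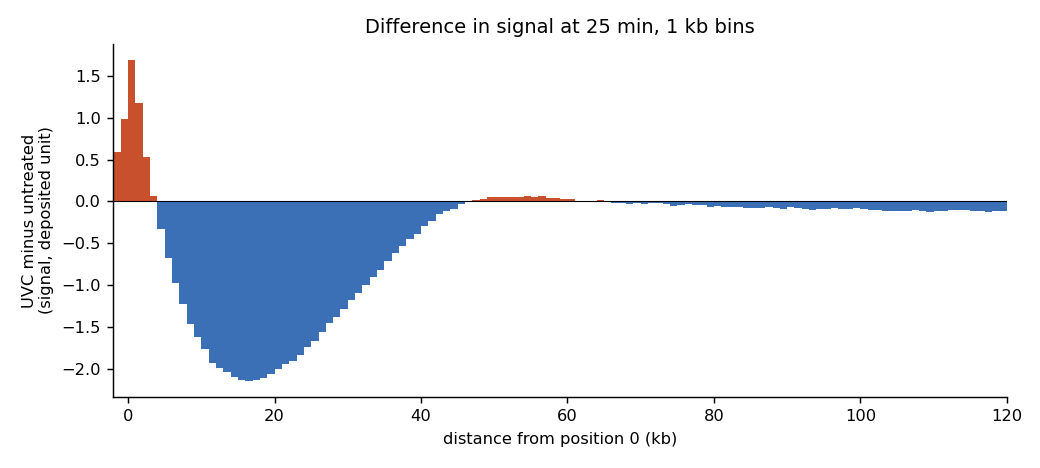
Irradiated minus untreated signal (vertical axis, deposited unit) in 1 kb bins at 25 min against distance from position 0 (horizontal axis, kb); bars above 0 are bins where irradiated cells were higher. The bars are positive up to 4 kb, reach -2.14 in the bin from 16 to 17 kb, and are slightly positive again from 47 to 62 kb.

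How far a given signal reached was compared at matched levels, read on a running mean of 2 kb from 2 kb on. Untreated cells held a signal of 4 until 8.51 kb and irradiated cells until 4.06 kb. A signal of 3 was held until 20.9 kb and 6.88 kb, and a signal of 2 until 32.7 kb and 11.1 kb. At 1.5 the distances were 39.0 kb and 14.5 kb. From a level of 3.5 down to 2, the untreated distance was 2.94 to 3.04 times the irradiated one. Outside this range the factor was 2.10 at a level of 4 and 2.69 at 1.5. These factors rest on the deposited scale. Relative to each library's own height, as read below, the factor ranged from 2.73 at 10% to 4.02 at 75% of the height.

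Distances were also read relative to each library's own height at 2 kb above its distal mean (108 to 120 kb). At 90% of that height the untreated profile stood at 8.05 kb and the irradiated one at 2.62 kb. At 75% they stood at 14.8 and 3.67 kb, at 25% at 32.1 and 10.1 kb, and at 10% at 37.6 and 13.8 kb. The gap widened from 5.43 kb at 90% to 23.8 kb at 10% of the height. The distances at 90% depended on the smoothing and were 15.1 and 3.79 kb with a running mean of 5 kb. The irradiated distance was between 24.9% and 36.6% of the untreated one at the 5 heights read, the half-height included. This reading needs no common scale, but the 2 heights from which it starts differ.

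Signal above the distal mean fell off with a length (the distance over which it drops to 1/e) of 3.64 kb in irradiated and 37.1 kb in untreated cells over 3 to 20 kb. In irradiated cells only 15 of the 17 bins in that range were above the distal mean and could enter. Over 3 to 10 kb, where all 7 bins entered, the lengths were 6.03 and 69.9 kb. The untreated signal is a plateau there, so its length is poorly described by an exponential.

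The irradiated 25 min profile was closest to the irradiated one at 40 min among the other 5 libraries. Over the 60 bins from 0 to 60 kb the mean absolute log2 difference was 0.112 from that library. It was 0.220 from the untreated library at 10 min, 0.295 from the irradiated library at 10 min and 0.681 from the untreated library at 25 min. At matched levels of 3 and 2.5 the irradiated 25 min distances (6.88 and 8.70 kb) lay within 1 kb of those of untreated cells at 10 min (7.43 and 8.39 kb). At a level of 4 the irradiated distance was the shorter (4.06 against 5.72 kb) and at 1.5 the longer (14.5 against 11.0 kb). These distances rest on the deposited scale, and the 2 profiles differ in height. Their highest 100 bp bins held 5.76 (irradiated, 25 min) and 8.67 (untreated, 10 min). Matched levels therefore do not show which profile was the more drawn out relative to its own height.

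The profile taken 10 min after release was then subtracted from that at 25 min within each treatment, to see where signal had been gained or lost in between. Over the first 2 kb the signal of untreated cells fell by 51.5%, from 7.62 to 3.70. That of irradiated cells fell by 39.5%, from 8.48 to 5.13. Untreated cells gained signal in every bin from 6 to 48 kb, with the largest gain, 2.69, in the bin from 14 to 15 kb. Irradiated cells gained signal in every bin from 4 to 38 kb, with the largest gain, 1.19, in the bin from 8 to 9 kb. The outer irradiated gains were small: 0.047 in the bin from 30 to 31 kb and 0.0053 in that from 37 to 38 kb. The outer untreated gains were small too: 0.052 in the bin from 45 to 46 kb and 0.0040 in that from 47 to 48 kb. Past 75 kb, signal also rose in every bin, by 0.022 to 0.072 in irradiated and 0.062 to 0.193 in untreated cells. In neither treatment do the outer gains therefore mark how far the wave had come.

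Between 5 and 40 kb the gain in irradiated cells was a shrinking share of the untreated gain with distance. Between 5 and 10 kb the gains were 1.02 in untreated and 1.05 in irradiated cells, so the irradiated gain was 103% of the untreated one. In the next window, to 15 kb, the gains were 2.53 and 0.934 (37.0%), and in that to 20 kb they were 2.55 and 0.479 (18.8%). The share was 9.96% between 20 and 25 kb, 5.18% between 25 and 30 kb and 2.46% between 30 and 40 kb. The share between 5 and 10 kb depended on the scaling: it was 184% with each profile divided by its distal mean and 522% with each divided by its overall mean. In the 4 windows of 5 kb that follow, the shares were 41.7%, 19.9%, 9.49% and 3.09% with the first division and 53.6%, 25.6%, 13.3% and 6.32% with the second, so the decline over these windows was seen under each scaling. Between 30 and 40 kb the share was 0.45% with the second division. With the first it had no value, because the irradiated gain was no longer positive. Further out, where both gains were small, the share was larger again on the deposited scale. It was 110% between 50 and 75 kb (0.026 in untreated and 0.028 in irradiated cells), 38.4% between 75 and 100 kb and 33.9% beyond 100 kb.

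**Figure D5:**
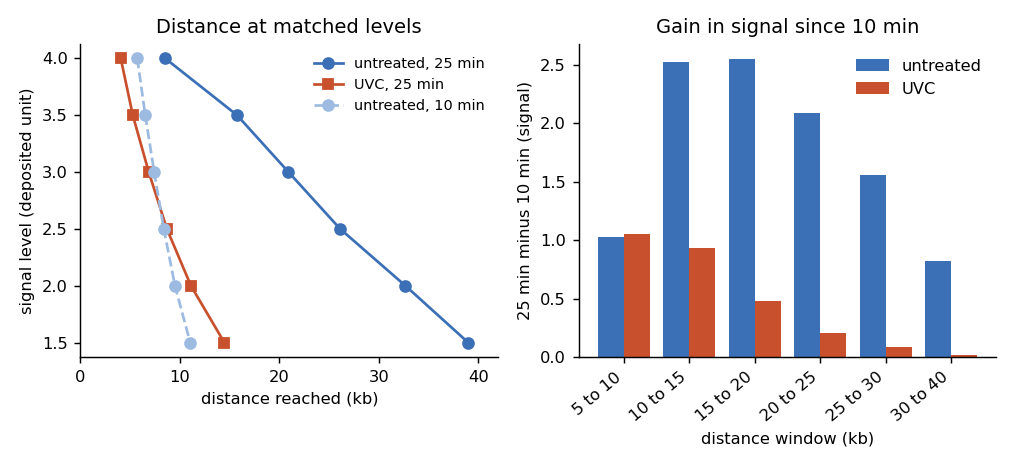
Left panel, distance in kb (horizontal axis) at which the running mean fell to each signal level (vertical axis) in untreated and irradiated cells at 25 min and in untreated cells at 10 min. Right panel, signal at 25 min minus that at 10 min (vertical axis) by distance window for each treatment; the irradiated bars shrink from 1.05 at 5 to 10 kb to 0.020 at 30 to 40 kb.

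A measure of shape that needs no scaling compared the start with the body in the same library. The signal from 0 to 2 kb was 1.29 times that from 20 to 25 kb in untreated and 5.25 times in irradiated cells at 25 min, a 4.06-fold difference between treatments. At 10 min the values were 9.91 and 11.0, a 1.12-fold difference, and at 40 min 1.01 and 4.16, a 4.13-fold difference. In both treatments the start-to-body ratio was lower at 25 than at 10 min, and the irradiated value remained above the untreated one at all 3 times. The divisor was not above background in every library. From 20 to 25 kb the signal was 0.976 in irradiated cells at 25 min, below that library's distal mean of 1.18. At 10 min it was 0.769 in untreated and 0.768 in irradiated cells, below a distal mean of 1.13 in each. Those 3 ratios therefore set the start against signal at background level.

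Past the wave the profiles were close but not identical. Irradiated signal was higher in every bin from 47 to 62 kb, with a highest ratio of 1.06 in the bin from 54 to 55 kb (1.21 against 1.14). From 62 kb on it was lower in 57 of 58 bins, with ratios from 0.903 to 1.01. From 100 to 120 kb the signal was 1.30 in untreated and 1.19 in irradiated cells, a ratio of 0.915. The direction out here depended on the scaling: with each profile divided by its overall mean the log2 ratio was 0.38 between 50 and 75 kb, 0.29 between 75 and 100 kb and 0.24 beyond 100 kb. At 10 min the same window held 1.13 in both libraries. Between 10 and 25 min it had thus increased by 14.9% in untreated and by 5.06% in irradiated cells. With each profile divided by its own distal mean this far difference is removed by construction, and the log2 ratio from 20 to 25 kb was then -1.42 in place of -1.55.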

How the data were processed

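GRO-seq signal was taken from 1 library for each of 6 combinations of treatment and time, grouped by the source name in the labels. Per the labels' protocols, the libraries kept strand and gave 51 bp single-end reads. BWA 0.5.9 and the builds hg19 and GRCh37 are named in the submitters' processing notes, with no role. The deposited signal is 1 value averaged over genes for each of 122001 positions, per the file headers. The gene set, read extension, strand handling and scaling by the authors are not given in the sources used here.

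Python 3.11.15 was used, with pandas 2.3.3 and numpy 2.4.6. Signal was averaged over 13 windows, 1 kb bins and 100 bp bins, without background subtraction or pseudocount, and a bin was called at a 1.5-fold ratio. Values were whole steps within 0.01 of a step. Functions were tested on simulated data. No test between groups was possible with 1 library a side. Alternatives changed scaling, window summary, background, bin width, fold, running mean and range. The comparison and its windows were chosen with earlier results of these data known. No gene was to be named unless values per gene were given.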

Additional observations from a re-analysis of the deposited data

Results flagged for a closer look

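In 7 instances the log2 ratio of irradiated to untreated signal had opposite signs at 25 min and at another time. None of these differences was tested, as every group is a single library. Against 10 min, the window between 2 and 5 kb changed from -0.32 to 0.029 at 25 min. Between 25 and 30 kb the value changed from 0.018 to -1.38, between 30 and 40 kb from 0.040 to -0.80, and between 40 and 50 kb from 0.042 to -0.099. Between 75 and 100 kb it changed from 0.0018 to -0.083, and beyond 100 kb from 0.0016 to -0.13. Against 40 min, the window between 50 and 75 kb had 0.015 at 25 min and -0.62 at 40 min. The 25 min signs beyond 40 kb were not stable. With each profile divided by its overall mean the 25 min value was 0.27 between 40 and 50 kb, 0.29 between 75 and 100 kb and 0.24 beyond 100 kb, and with the window median it was -0.0088 between 50 and 75 kb. Only 3 of the reported values were past a fold of 1.5: those at 25 min between 25 and 30 kb and between 30 and 40 kb, and that at 40 min between 50 and 75 kb.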

How the results depend on the processing

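No paired analysis was possible because each group was 1 library. The irradiated distance was the shorter in all 23 pairs read under the alternatives for smoothing, background and reference height. Of 55 alternative window ratios, 46 kept their sign. The 9 that did not were in windows whose reported log2 ratio was smaller than a fold of 1.5. One of them, from 5 to 10 kb, became 0.041 with the 10 min profile subtracted, a setting chosen after seeing the data; the others lay beyond 40 kb. In all, 70 of 139 alternative values stayed within the spread along the profile, 1 kb, 10% or, for counts of bins, 1.5 times. The other 69 moved further. Among these was the log2 ratio of every window when each profile was divided by its overall mean.

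Dividing each profile by its own mean gave log2 ratios of 0.84 from 0 to 2 kb and -1.18 from 20 to 25 kb, a first bin below 1 at 6 kb, a lowest ratio of 0.432 and 3.28% of bins higher by 1.5-fold. Missing signal was then 16.4% of the untreated total in place of 25.1%, and the excess was 100.0% of it, by construction. Dividing by the distal mean gave -1.42 from 20 to 25 kb, 1.64% of bins higher, 20.7% missing and an excess of 26.7% of the missing signal. From 0 to 2 kb the log2 ratio was 0.72 with the distal mean subtracted. From 20 to 25 kb it was -1.58 with the window median and -3.33 with the 10 min profile subtracted; subtracting the distal mean gave no value there. The share of bins higher was 0% with 2 kb bins, 3.28% with the lower fold tried and 0% at a fold of 2. At 50% of the height the untreated and irradiated distances were 25.7 and 7.39 kb with a running mean of 5 kb, and 30.6 and 8.35 kb without background. The irradiated distance was 7.50 kb at the untreated level. The untreated fall-off length was 69.9 kb over 3 to 10 kb and 23.2 kb over 3 to 30 kb. The irradiated length was 6.03 kb over 3 to 10 kb and 5.77 kb with the lowest point as background. Read depth is unknown, and no value has an error that covers cultures.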

Other observations

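Away from the wave, small bumps along the averaged profile recurred between libraries. In 100 bp bins from 60 to 115 kb, with the running mean over 5 kb removed on the log2 scale, the irradiated 25 min profile had a Pearson correlation of 0.685 with the untreated 25 min profile over 550 bins. It was 0.805 with the irradiated 40 min profile, 0.744 with the untreated and 0.731 with the irradiated 10 min profile, and 0.574 with the untreated 40 min profile. The SD of these bumps was 0.019 in log2 units in both 25 min libraries. The bins share the averaged genes and their base composition and overlap through reads, so they are not independent, and this is given as a description only.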
